A study of Drosophila melanogaster with 2 samples.

Results

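Aminoacyl-tRNA synthetases load each transfer RNA with its amino acid, so that every codon is read by a correctly charged tRNA. The fly nuclear genome encodes enzymes that work in the cytoplasm and a further set that is imported into mitochondria and charges the tRNAs of the mitochondrial genome. In animals, some cytoplasmic synthetases gather in a multi-synthetase complex, and some genes without a mitochondrial counterpart, such as those for glycine and lysine in mammals, supply both compartments. Hairy/E(spl) proteins are DNA-binding repressors of the basic helix-loop-helix-Orange family that act with the corepressor Groucho, and the E(spl)m8-HLH gene is a target that Notch signalling switches on.

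The synthetase genes were taken by symbol: a 3-letter amino acid code followed by RS, with the suffix -m marking the mitochondrial enzymes. This gave 32 of the 13945 protein-coding genes on the 6 chromosome arms, of which 17 were cytoplasmic and 15 mitochondrial. The symbol rule uses no measured value. Binding of E(spl)m8-HLH was measured by chromatin immunoprecipitation with sequencing (ChIP-seq) in a transgenic *Drosophila melanogaster* line that carries the protein with GFP at its C-terminus, precipitated through GFP. The chromatin came from whole embryos of mixed sex, 4 to 14 h old, so signals of all embryonic cell types are averaged. The 2 biological replicates, numbered 2 and 3, formed a single group from the same transgenic line, with no second condition.

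Peaks came from the authors' optimal list, which holds 6152 peaks selected by irreproducible discovery rate and has a median signal of 289.8. The signal is the authors' enrichment value of a peak, on a scale that no source states, and here it serves to rank peaks within 1 list. A gene counted as bound when the highest point of a peak, its summit, fell inside the gene or no more than 2 kb away. By this definition 36.8% of all protein-coding genes were bound. Read depth is unknown, since the lists give no read counts, and intervals below are exact binomial 95% intervals that cover counting error only.

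E(spl)m8-HLH peaks lay at 16 of the 32 synthetase genes, or 50% (31.9 to 68.1). Other protein-coding genes of like length, compared within 10 classes of gene length, were bound in 37.8% of cases, which would give 12.1 genes. Cytoplasmic synthetase genes made up most of the bound members, with 11 of 17 bound (64.7%, 38.3 to 85.8) against 6.52 for like lengths. Mitochondrial synthetase genes were bound in 5 of 15 cases (33.3%, 11.8 to 61.6) against 5.59 for like lengths, close to the share of all genes. The intervals of the compartments overlap, and the difference between them was not tested. Gene lengths were similar, with medians of 2760 bp for the cytoplasmic and 2727 bp for the mitochondrial genes.

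The bound cytoplasmic genes were AlaRS, ArgRS, AsnRS, AspRS, GlnRS, GlyRS, IleRS, MetRS, SerRS, ThrRS and ValRS. CysRS, HisRS, LeuRS, LysRS, TrpRS and TyrRS had no summit within reach. Among the mitochondrial genes, CysRS-m, LeuRS-m, PheRS-m, ProRS-m and SerRS-m were bound. AlaRS-m, ArgRS-m, AsnRS-m, AspRS-m, GluRS-m, IleRS-m, MetRS-m, TrpRS-m, TyrRS-m and ValRS-m were not. The longest member, MetRS-m at 10949 bp, was among the unbound genes, and the shortest, PheRS-m at 1595 bp, was among the bound ones.

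**Figure D1:**
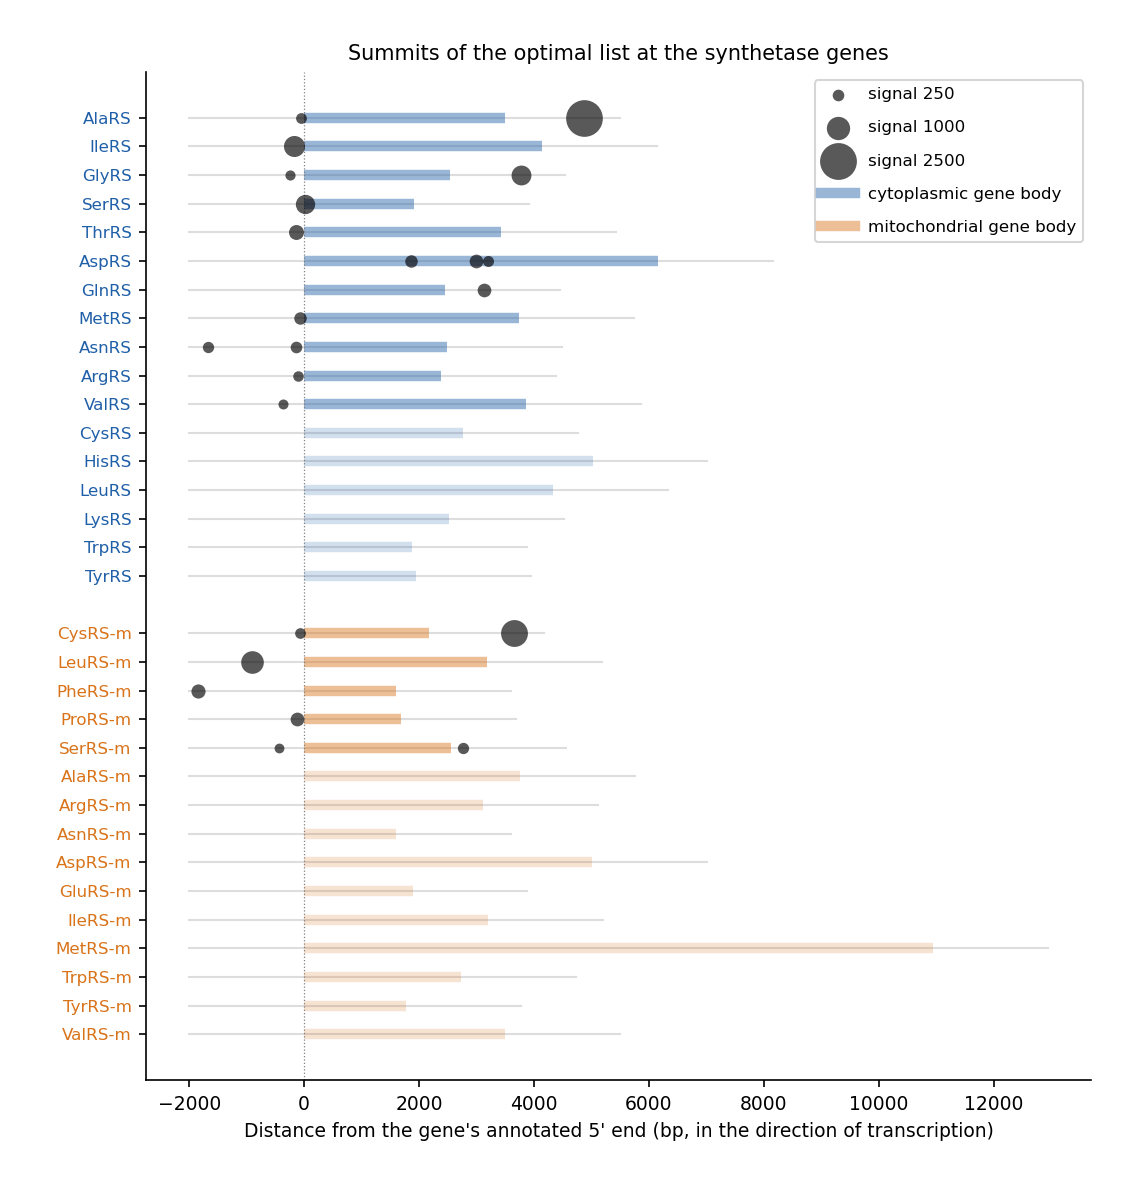
Map of the summits of the optimal list at the 32 synthetase genes, drawn to scale from each gene's annotated 5' end (x axis, bp, in the direction of transcription). Bars are gene bodies, grey lines the 2 kb on either side, faint bars unbound genes, and the area of a black circle is proportional to the peak's signal. Many circles stand at the 5' ends, those of AspRS lie inside the gene, and the largest ones, at AlaRS and CysRS-m, lie past the 3' ends.

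A stricter view keeps only summits near an annotated start of the gene, also where another gene starts nearer. A summit lay within 500 bp of an own transcription start site (TSS) at 13 synthetase genes, or 40.6% (23.7 to 59.4), where 20.4% of all protein-coding genes and 23.1% of genes of like length had one. At 9 of the 13, the TSS nearest to the strongest such summit was the gene's own. At AspRS, GlyRS, ValRS and ProRS-m a TSS of Nmda1, Plp, Kdm4B and CG42304, respectively, was nearer. The cytoplasmic genes accounted for 10 of these 13, which is 58.8% of the 17 (32.9 to 81.6) against 23.4% for like lengths. The mitochondrial genes accounted for 3 of 15, or 20% (4.33 to 48.1) against 22.8%. Of the 16 bound synthetase genes, 81.2% (54.4 to 96) thus had a peak at an own start, compared with 55.3% of the 5137 bound protein-coding genes. These bound genes were matched neither for length (medians 2548.5 bp and 3251 bp) nor for the arrangement of genes described below. Among the stronger 50% of the peaks, 5 of 11 bound synthetase genes had a peak at their own start (45.5%), against 48.8% of all bound genes.

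The arrangement of the genes was not the same in the compartments. A divergent partner, meaning a TSS on the other strand no more than 1 kb upstream, was annotated for 14 of the 17 cytoplasmic genes (82.4%), for 7 of the 15 mitochondrial genes (46.7%) and for 36.3% of all protein-coding genes. Across all protein-coding genes, 49.1% of those with such a partner and 29.8% of those without it were bound. When genes of like length were also required to have the same divergent status, the number for the cytoplasmic genes was 7.94 in place of 6.52, with 11 observed, and that for the mitochondrial genes 5.90 in place of 5.59, with 5 observed. For summits at the own TSS the cytoplasmic number was 5.48 in place of 3.98, with 10 observed. This comparison was added after the values were seen. Among synthetase genes with a partner 12 of 21 were bound, and among those without one 4 of 11. The part of divergent promoters in the difference between compartments was not tested.

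**Figure D2:**
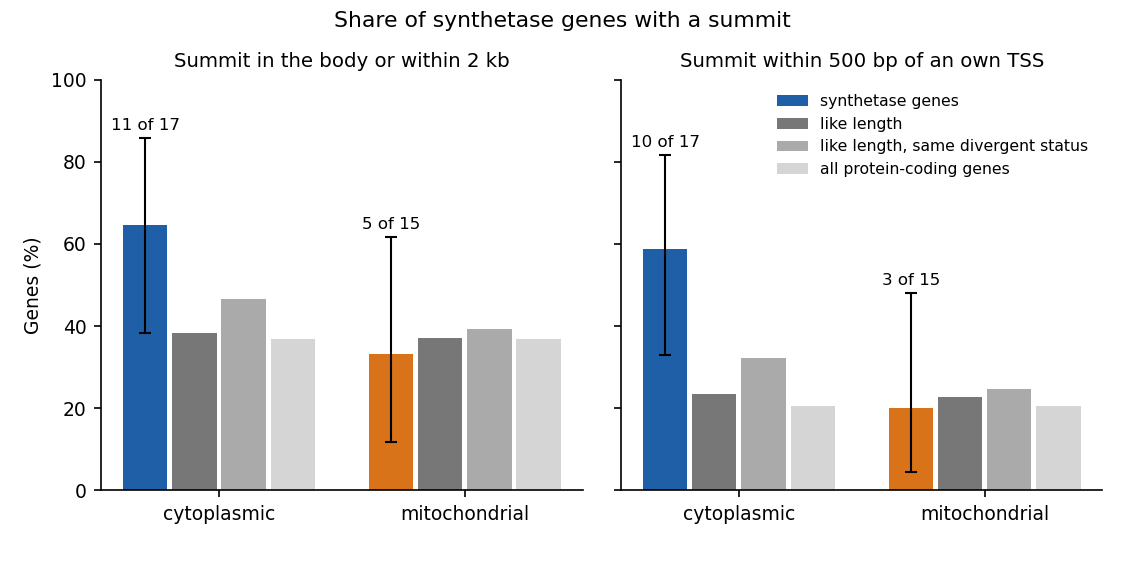
Share of synthetase genes with a summit in the body or within 2 kb (left) and within 500 bp of an own TSS (right), in percent, for cytoplasmic (blue) and mitochondrial (orange) genes. Error bars are exact binomial 95% intervals, and grey bars give other protein-coding genes of like length, of like length and the same divergent status, and all protein-coding genes; in both panels the cytoplasmic bar is above its grey bars and the mitochondrial bar is below each of its grey bars.

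Promoter peaks at synthetase genes had positions like those of protein-coding genes in general. Over the 13 genes, the strongest summit within 500 bp of an own TSS lay upstream in 12 cases (92.3%), with a median distance of −136 bp. Over all 2843 protein-coding genes with such a summit, 85.6% had it upstream and the median was −138 bp. Their signals ran from 178 to 816 with a median of 250, against a median of 317 for those 2843 genes, and 8 of the 13 were below the median of the optimal list. IleRS, which charges isoleucine tRNA, had the strongest of these peaks, with a signal of 816 and its summit at −169 bp. SerRS, for serine, followed with 687 and a summit 9 bp downstream of its TSS. ThrRS, for threonine, reached 413 at −150 bp, ProRS-m 349 at −129 bp and AspRS, for aspartate, 346 at −287 bp from an internal TSS. These 5 stood above the list median. MetRS, which charges both the initiator and the elongator methionine tRNA, had 288 at −70 bp, AsnRS 250 at −136 bp and AlaRS 216 at −52 bp. CysRS-m had 213 at −76 bp, ArgRS 205 at −115 bp and GlyRS 191 at −249 bp. The lowest were ValRS, with 185 at −370 bp, and SerRS-m, with 178 at −436 bp.

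The DNA under these promoter peaks is shown for 8 of the 13 genes, so that the base composition described after them can be seen. Each window covers 50 bp on either side of the summit, cut where an exon begins, on the strand of the gene. Sequences are from the Release 6 reference genome. Capitals mark ATCGATA, read on both strands where its copies overlap, in AlaRS, and the longest run of letters shared between windows, 12 bases, in IleRS and ArgRS.
IleRS (chr3L:22288446-22288546, plus strand): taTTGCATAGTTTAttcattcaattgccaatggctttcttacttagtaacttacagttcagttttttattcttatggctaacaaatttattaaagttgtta
ArgRS (chrX:15844210-15844310, minus strand): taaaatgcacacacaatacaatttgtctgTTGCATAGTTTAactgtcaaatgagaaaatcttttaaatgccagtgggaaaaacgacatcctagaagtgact
ThrRS (chr2L:12103551-12103651, plus strand): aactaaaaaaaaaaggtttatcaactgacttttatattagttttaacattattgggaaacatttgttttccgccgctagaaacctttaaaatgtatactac
AsnRS (chr2L:19132040-19132140, minus strand): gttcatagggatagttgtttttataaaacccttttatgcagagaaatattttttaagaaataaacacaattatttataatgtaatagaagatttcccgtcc
AlaRS (chr2L:8381766-8381820, minus strand): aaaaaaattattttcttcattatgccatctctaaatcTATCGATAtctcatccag
GlyRS (chr3L:15094843-15094943, plus strand): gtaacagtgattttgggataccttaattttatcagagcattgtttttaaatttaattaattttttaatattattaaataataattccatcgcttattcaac
ProRS-m (chr3L:2651929-2652029, minus strand): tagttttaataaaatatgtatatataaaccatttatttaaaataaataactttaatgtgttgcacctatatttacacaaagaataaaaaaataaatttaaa
SerRS-m (chr3R:15340181-15340281, plus strand): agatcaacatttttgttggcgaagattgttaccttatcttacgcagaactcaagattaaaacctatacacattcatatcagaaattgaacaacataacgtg

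These windows were mostly rich in A and T. GC content ran from 13.9% in ProRS-m to 33.7% in ArgRS, and ArgRS and SerRS-m (32.7%) were the only windows shown above the median of summits at promoters in general. That median was 31.7% over the 2279 summits of the optimal list within 500 bp of any protein-coding TSS. The median was 25.7% over the 14 promoter summits of the synthetase genes, with whole windows of 101 bp. The run shared by IleRS and ArgRS occurred in no other of the 6152 summit windows. It was picked out after the sequences were seen, and the next longest shared run, of 11 bases, was nearly as long.

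The letters of sites known for Hairy/E(spl) proteins were looked for at all summits of the synthetase genes. Neither CACGTG, an E-box, nor CACGCG, the class C site, occurred on either strand within 50 bp of any of the 23 summits at synthetase genes. For each site a count of 0 allows up to 3 windows of 23, a share of 13%, and the exact interval reaches 14.8%, so shares like those of all summits (2.00% and 3.32%) could not be detected with so few windows. ATCGATA, the core of the element bound by DREF and BEAF-32, was in 2 of 23 windows (8.70%, 1.07 to 28.0), at AlaRS and MetRS. It was in 2.60% of all summit windows, which were matched for neither base composition nor distance to a TSS. Within 25 bp of the summit it was in none, and within 100 bp in 4 of 23 windows (17.4%, against 5.67%), at AlaRS, ArgRS, AspRS and MetRS. GGTCACAC, part of a core promoter element bound by M1BP, and TGATGNAA, part of a site for ATF4-type factors, which in mammals drive synthetase genes under amino acid stress, occurred in 0 of 23 windows each. They were in 0.780% and 1.40% of all summit windows.

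The promoters themselves, from 250 bp before to 50 bp after the annotated 5' end of each gene and searched on both strands, held ATCGATA in 7 of 32 synthetase genes (21.9%) against 18.2% of all protein-coding genes. These were AlaRS, ArgRS, IleRS, MetRS and TrpRS, which are cytoplasmic, and AspRS-m and PheRS-m. CACGCG was present in 3 of 32 promoters (9.38%, against 6.12% of all), those of HisRS, LeuRS and TyrRS, and none of these 3 genes was bound. Over all protein-coding genes, 372 of the 853 with CACGCG in the promoter were bound, and 3 genes are too few to compare with that. CACGTG was present in 2 (6.25%, against 4.20%), GlnRS and LeuRS-m, which were bound through summits away from their starts. Among all protein-coding genes with CACGTG there, 254 of 586 were bound. GGTCACAC was in 4 (12.5%, against 7.70%), GlnRS, AsnRS-m, AspRS-m and ProRS-m, and TGATGNAA in 1 (3.12%, against 4.07%), CysRS. A match describes the letters present and not a site in use.

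Of the 16 bound synthetase genes, 10 had their strongest summit nearer to the start of another gene than to their own, among them the 3 with the highest signals, AlaRS, CysRS-m and LeuRS-m. AlaRS, for alanine, had the highest signal of the 32 genes, 2482 (rank 32 of the list). Its summit at 8376887 on 2L lay 1375 bp past the 3' end of AlaRS and at −90 bp from the TSS of CG13390. The peak ranked 27 in replicate 2 and 55 in replicate 3. At its own start AlaRS had only the peak of 216. GlyRS, for glycine, had 727 at 15098915 on 3L, 1229 bp past its end, in an intron of Ctps, the CTP synthase gene, and 587 bp inside a noncoding RNA gene, lncRNA:CR43973. It ranked 954 in replicate 2 and 560 in replicate 3. GlnRS, for glutamine, was bound only through a summit of 345 at 25262598 on 3R, 669 bp past its end and at −100 bp from the TSS of Kdsr.

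Of the 5 bound mitochondrial genes 0 had the strongest summit nearest to their own TSS, and of the 11 bound cytoplasmic genes 6 had it there (54.5%). Over all bound protein-coding genes the share was 47.0%. CysRS-m reached 1331 (rank 186) at 14157617 on 2R, 1479 bp past its end and at −129 bp from the TSS of CG13018, with rank 140 in replicate 2 and 286 in replicate 3. Its own promoter peak of 213 had its summit in the 168 bp that separate CysRS-m from O-fut1, which encodes the O-fucosyltransferase of the Notch receptor. LeuRS-m had 945 (rank 409) at 4824941 on 3L, at −912 bp from its TSS and inside an intron of Dhc64C, the cytoplasmic dynein heavy chain gene, from which it diverges. PheRS-m had 369 at 13966457 on 2R, at −1851 bp and in an intron of CtsL1, a cathepsin gene. A stronger summit of the same peak, with 713, lay 2056 bp from PheRS-m and so just out of reach. ProRS-m had 349 at 2651979 on 3L, in the 238 bp between it and CG42304, slightly nearer to CG42304 (−109 bp against −129 bp), and ranked 2278 in replicate 2 and 2618 in replicate 3. SerRS-m had 235 at 15343428 on 3R, 210 bp past its end and at −172 bp from the TSS of Nagk.

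IleRS, SerRS and ThrRS had strong peaks at their own starts. The IleRS peak (rank 570) had its summit at 22288496 on 3L, in the 470 bp shared with Hem, a gene of the actin-regulating WAVE complex. The SerRS peak (rank 788) had its summit at 3037394 on 2L, and the ThrRS peak (rank 1858) at 12103601 on 2L. AspRS carried 3 summits, the most of any synthetase gene, with signals of 346, 289 and 225. All lay within the annotated gene and nearest to a TSS of Nmda1, a gene on 2R with starts inside AspRS. The strongest lay at 12879997 and ranked 2344 in replicate 2 and 2436 in replicate 3. ValRS was bound at a summit at −370 bp from its own TSS and −143 bp from that of its divergent partner Kdm4B, a histone demethylase gene. In all, 10 of the 16 bound genes had a single summit (62.5%, against 64.4% of bound protein-coding genes), 5 had 2 and AspRS had 3. The median of the strongest signal per bound synthetase gene was 359, and that over all bound protein-coding genes 360.

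**Figure D3:**
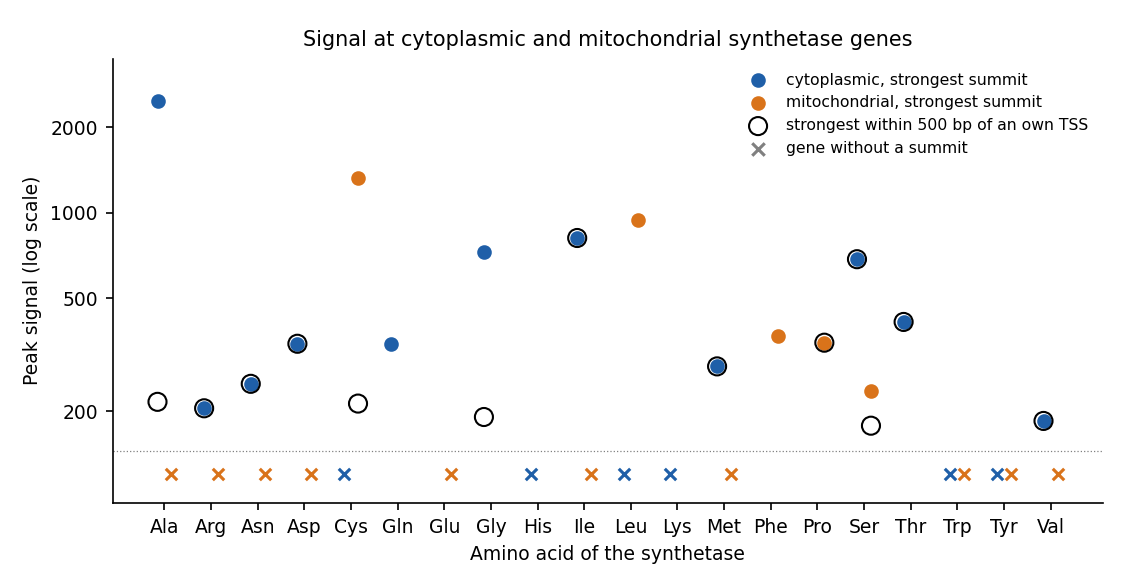
Signal of the strongest summit (y axis, log scale, the authors' enrichment value) for each cytoplasmic (blue) and mitochondrial (orange) synthetase gene, by amino acid. Open circles mark the strongest summit within 500 bp of an own TSS, and crosses under the dotted line mark genes without a summit; at Ala, Gly and Cys the open circle lies far below the filled one.

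For 12 amino acids both a cytoplasmic and a mitochondrial gene were among the members, which lets the enzymes be set side by side. Only the cytoplasmic gene was bound for 7 of them (Ala, Arg, Asn, Asp, Ile, Met and Val). Only the mitochondrial gene was bound for 2 (Cys and Leu), both genes for 1 (Ser), and neither for 2 (Trp and Tyr). The serine pair had 687 at SerRS and 235 at SerRS-m. Of the 5 cytoplasmic genes with no mitochondrial partner among the members, GlnRS, GlyRS and ThrRS were bound and HisRS and LysRS were not. Of the 3 mitochondrial genes with no cytoplasmic partner in the list, PheRS-m and ProRS-m were bound and GluRS-m was not.

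Grouped by the 2 structural classes of synthetase, class I, with a Rossmann fold, had 7 of 18 genes bound, and class II, built on an antiparallel sheet, had 9 of 14. Among cytoplasmic genes the counts were 5 of 9 in class I and 6 of 8 in class II, and among mitochondrial genes 2 of 9 and 3 of 6. The 7 cytoplasmic members whose enzymes belong to the multi-synthetase complex of animals gave 5 bound genes, all but LeuRS and LysRS, and the other 10 cytoplasmic genes gave 6. Beside these counts stands the share of 36.8% bound over all protein-coding genes. By arm, 1 of 3 genes was bound on X, 4 of 6 on 2L, 5 of 8 on 2R, 4 of 10 on 3L and 2 of 5 on 3R, and arm 4 held no member. Over all protein-coding genes of these arms the shares were 36.1%, 36.5%, 35.1%, 38.8% and 38.0%, in the same order. The counts by class, complex and arm are small, were not set against genes of like length and were not tested.

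The optimal list was selected for agreement between these replicates, so the presence of its summits in the replicate lists is a description only. It held 23 summits at synthetase genes, and 20 of them (87.0%) lay inside a peak of both replicate lists of 30000 peaks each, against 96.9% of all 6152 summits. Replicate 2 held 21 and replicate 3 held 22. The order was the other way among the 6152 strongest peaks of each replicate list. There 19 of the 23 (82.6%) were in both, against 76.0% of all summits. The summit of ThrRS ranked 1461 in replicate 2 and fell just outside the replicate 3 peak there, whose own summit was 21 bp away and ranked 2513. The weakest AspRS summit, at 12880196, was past the end (12880172) of the replicate 2 peak that covers the strongest one. Only the promoter summit of SerRS-m (178) had no overlapping peak in replicate 2, and it ranked 6779 in replicate 3.

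For the 15 bound genes whose strongest summit was in both lists, the ranks were within 2-fold of each other in 11. AsnRS ranked 3758 in replicate 2 and 3744 in replicate 3, AspRS 2344 and 2436, and LeuRS-m 412 and 446. IleRS ranked 518 and 700, and SerRS 599 and 1186. The widest gap was at PheRS-m, with rank 5958 in replicate 2 and 2099 in replicate 3, a 2.84-fold difference. Several summits share 1 peak there, and the ranks are those of the replicate summits nearest to that of the optimal list. Taking the strongest summit of the same replicate 3 peak instead gives rank 392 and a 15.2-fold difference. AlaRS (27 and 55), CysRS-m (140 and 286) and SerRS-m (6106 and 2929) were just past 2-fold. ValRS, the weakest bound gene, ranked 8005 and 4701, so that it was beyond the 6152 strongest peaks in replicate 2.

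**Figure D4:**
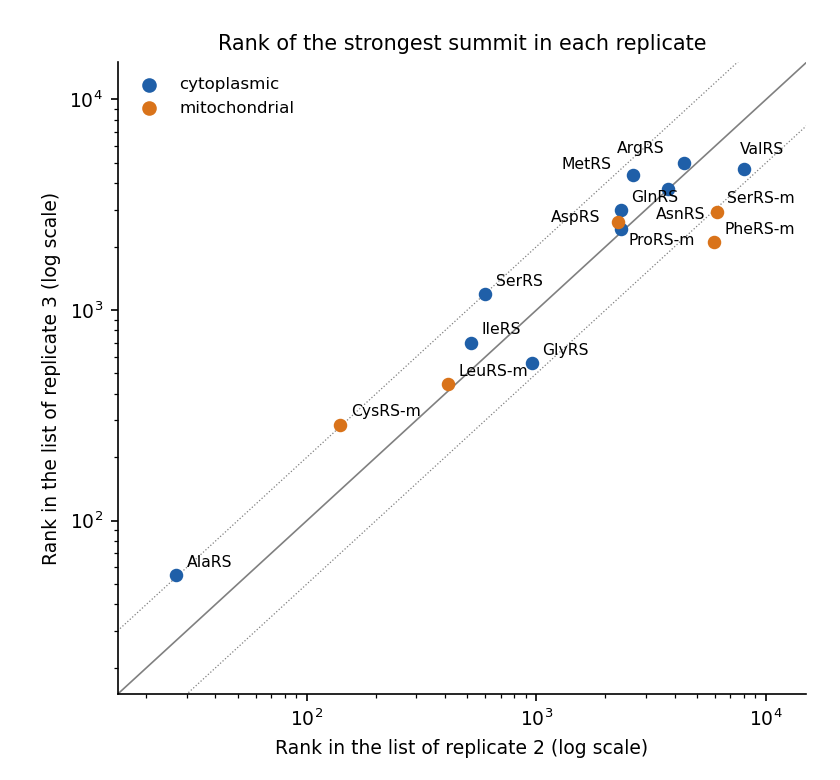
Rank of the strongest summit at each of the 15 bound synthetase genes found in both replicates, in the list of replicate 2 (x axis, log scale) and of replicate 3 (y axis, log scale). The solid line marks equal ranks and the dotted lines a 2-fold difference; PheRS-m is the point farthest outside them, at rank 5958 in replicate 2 and 2099 in replicate 3.

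Some of the 16 unbound genes had weaker peaks. The nearest summit of the optimal list lay from 2264 bp (IleRS-m) to 23371 bp (AsnRS-m) beyond the gene, with a median of 4789 bp. For 5 of them it was within 3 kb: IleRS-m, ArgRS-m (2347 bp), LeuRS (2650 bp), GluRS-m (2806 bp) and CysRS (2946 bp). Among the cytoplasmic genes farther off, the distance was 4417 bp for TrpRS, 4532 bp for HisRS, 4863 bp for TyrRS and 6092 bp for LysRS. Among the mitochondrial ones it was 4715 bp for TrpRS-m, 5274 bp for AlaRS-m, 6421 bp for ValRS-m and 8556 bp for AspRS-m, and, beside AsnRS-m, it passed 10 kb for TyrRS-m (10152 bp) and MetRS-m (18108 bp). TyrRS and GluRS-m are neighbours on 3L, and for both the nearest summit was the same peak of 324 near Serinc. The longer list called on pooled replicates, with 30000 peaks, had a summit within 2 kb of 8 of the 16 (50%), where 46.0% of all 8808 unbound protein-coding genes had one. The 8 were CysRS, HisRS, LysRS, TrpRS, AlaRS-m, ArgRS-m, AsnRS-m and TrpRS-m. Their best ranks ran from 6616 at ArgRS-m to 23955 at TrpRS. HisRS had 6 such weaker summits, the best ranking 11427. AsnRS-m had a peak of rank 1196 in replicate 2, but the best peak there in replicate 3 ranked 15475. IleRS-m, GluRS-m, MetRS-m and ValRS-m had no summit within 2 kb in any of the 4 lists.

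Genes that act beside the synthetases were bound in mixed proportions. Of the 4 synthetase or synthetase-like genes that the symbol rule does not take in, 2 were bound, against 1.41 for like lengths. GluProRS, a fused enzyme for glutamate and proline, had 493 at −105 bp from its TSS, and alpha-PheRS had 580 at the promoter of CG17982, while beta-PheRS and Slimp were unbound. None of the 3 scaffold genes of the multi-synthetase complex (AIMP1, AIMP2 and AIMP3) was bound, against 0.815. Of the 3 genes for the mitochondrial amidotransferase, which makes glutaminyl-tRNA from glutamyl-tRNA, GatA was bound (209, −121 bp) against 1.02. The GatA summit was nearer to the TSS of P5cr, at 47 bp. Cytoplasmic elongation factors, which assist the ribosome while it extends the chain, were bound in 5 of 7 cases against 2.59. They were eEF1gamma (1014, −37 bp), eEF1alpha1 (697), eEF2 (378, 7 bp), eEF5 (295) and eEF1alpha2 (184), while eEF1beta and eEF1delta were unbound. The strongest summits of eEF1alpha1, eEF5 and eEF1alpha2 were nearest to starts of other genes: ERp60, RpL12 (−43 bp) and CG1896 (−54 bp). A summit within 500 bp of an own TSS was present at 4 of the 7, against 20.4% of all protein-coding genes. Of 4 mitochondrial elongation factor genes only mEFG1 was bound (208, at −6 bp from the TSS of CG13784) against 1.35, and mEFTu1, mEFTu2 and mEFTs were not.

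The counts changed with the rule that assigns a peak to a gene. When a peak counted only for the protein-coding gene with the nearest TSS, 9 of 32 synthetase genes (28.1%) were bound against 24.4% of all, and AspRS, GlnRS, GlyRS, ValRS, LeuRS-m, PheRS-m and ProRS-m dropped out. With flanks of 5 kb 25 of 32 were bound (78.1%, against 50.9%), among them 16 of the 17 cytoplasmic genes.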

How the data were processed

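The data were 4 peak lists on dm6, deposited by the authors and made by them per the accompanying file notes: 1 for each of 2 biological replicates, 1 on pooled replicates, and an optimal set by irreproducible discovery rate. The signal per peak is the authors' deposited enrichment value. The −log10 q-value is also as deposited and was not used, being the same for all optimal peaks. The sources used here name no aligner, peak caller or threshold, and the control was not analysed here. Read depth is unknown. No read was reprocessed.

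A summit is column 2 plus column 10, written 1-based. Genes, TSSs and exons came from Ensembl release 115 without transposable elements, and sequences from the RefSeq Release 6 genome, whose arms contain every peak. A summit was found in a replicate when it lay inside a peak of that list, and took the rank of the nearest summit in that peak. The 10 classes of gene length were set over all protein-coding genes, and members were left out of the genes of like length. Members, related gene lists (mEFG2 was not matched) and motifs were chosen with earlier results of these data known. All bound members are named, and the 6 strongest per compartment (all 5 in mitochondria) are given in detail. No test was run, since there is 1 group and genes of a list are not replicates. Scripts in Python 3.11.15 with pandas 2.3.3, numpy 2.4.6 and scipy 1.17.1 were tested on simulated data. Alternatives covered flanks, TSS windows, peak strength, the pooled list, each replicate, overlap rules and motif windows. The comparison by divergent status was added after seeing the data.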

Additional observations from a re-analysis of the deposited data

How the results depend on the processing

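The share of bound synthetase genes was 50%, against 36.8% of all protein-coding genes, whose share is given second below. It stayed inside its interval with flanks of 500 bp (40.6%, 27.7%), summits within 1 kb of a TSS (43.8%, 23.7%), any base of the peak within 2 kb (50%, 37.8%) and the stronger 50% of peaks (34.4%, 23.3%). It moved outside with flanks of 5 kb (78.1%, 50.9%), with the nearest protein-coding TSS only (28.1%, 24.4%) and with all pooled peaks (75%, 65.9%). The cytoplasmic share, 64.7%, moved to 94.1% with flanks of 5 kb and 88.2% with all pooled peaks (50.9% and 65.9% of all genes). It fell to 41.2% both by nearest TSS and with the stronger 50% of peaks (24.4% and 23.3% of all genes), still inside its interval. The mitochondrial share, 33.3%, stayed inside its interval in each of these settings, from 13.3% by nearest TSS to 60.0%. The cytoplasmic share was above the mitochondrial share in each of them.

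Without replicate 2 or replicate 3, calls came from the top 6152 peaks of the list that was left. The share over all members then ran from 50% to 53.1% (all genes 35.3% and 38.5%), the cytoplasmic share was 64.7% both times, and the mitochondrial share ran from 33.3% to 40.0%. Without replicate 3, ValRS was lost and TyrRS and AsnRS-m were gained. The share of bound genes with a summit at their own start, 81.2%, ran from 75% to 82.4%, and moved to 45.5% in the stronger 50% of peaks. Summits in both replicate lists ran from 82.6%, in the top 6152 peaks of each list (all summits 76.0%), to 91.3%, with at least 50% of the shorter peak shared. Genes within 20% of a member's length were bound in 37.9% of cases, against 37.8% by length class. No paired analysis was possible because both replicates belong to 1 group and nothing was compared between groups. Neighbouring genes share peaks, and with 17 and 15 genes the intervals are wide.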
